A study of Homo sapiens with 46 samples.

Results

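Disome footprints, the protected fragments left when a pair of touching ribosomes shields the message, were compared between HEK293 Flp-In T-REx cells given siRNA against both ASCC3 and 4EHP (2 libraries, called combined below) and cells given siRNA against 4EHP alone (2 libraries). These 4 libraries, chosen by their labels, are part of 46 in the series. HEK293 Flp-In T-REx is a human embryonic kidney cell line. Every siRNA group received a dose of 75 nM for 72 h and then a second of 30 nM for 24 h, control cells included, and the combined group differed from the 4EHP group in also receiving ASCC3 siRNA. Whether the doses are totals or apply to each siRNA is not stated, so the amount of 4EHP siRNA may differ as well. The other siRNA libraries used here were disomes of ASCC3 (1 library), ABCE1 (1 library) and control cells (2 libraries), with 10 monosome libraries and 8 RNA-seq libraries of the same arm.

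A disome forms when a ribosome runs into the one ahead of it, so disome footprints mark places where ribosomes queue or collide. ASCC3 is the helicase of a complex that pulls collided ribosomes apart on the message. 4EHP, encoded by EIF4E2, is a cap-binding protein that takes the place of the initiation factor eIF4E and, with GIGYF proteins, lowers initiation on messages where ribosomes collide. The comparison asks what ASCC3 siRNA adds to the disome profile when 4EHP is already targeted.

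The deposited files give an Ensembl transcript ID and no gene name, and no table used here pairs those IDs with genes, so the knockdown of ASCC3 and 4EHP, the markers of the cell line and gene lists were not examined. Isoforms were joined where their counts met the rule given under processing. Each result below is on a feature so formed, one transcript standing for itself and for any joined to it. Features left apart can still share reads, so one read may count on more than one feature. Several features may belong to the same gene. Over all features, the combined libraries held 719769 and 1239084 disome counts, and the 4EHP libraries 704299 and 432962. Over 8421 well-counted features, the log2 difference between replicates had an SD of 0.410 in combined, 0.532 in 4EHP and 0.409 in control cells. The 4EHP pair, with the fewest counts, thus differed most on this scale. Measured against sampling noise it differed least, the chi-square per degree of freedom being 1.53 in 4EHP, 1.7 in combined and 1.79 in control disomes. That measure rises with depth where replicates differ beyond sampling noise, so it cannot rank pairs of unequal depth. Whether the 2 libraries of a group are separate cultures is not stated in the labels, so the spread behind each p-value may be technical.

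Disome counts differed between combined and 4EHP cells on a small share of features, with more lower than higher in combined cells. Of 12434 features tested, 149 were higher and 325 were lower in combined than in 4EHP cells (edgeR quasi-likelihood test, adjusted p under 0.05), which is 3.81% of those tested, 1.2% higher and 2.61% lower. Among the calls, rises had a median of 1.25 on the log2 scale and falls a median of -0.78. The smallest called changes were near each other in size, 0.41 for rises and 0.36 for falls. More of the falls lay at high disome levels, where smaller changes were called. The median over all features tested was 0.0036. Changes of at least 2-fold numbered 92 among the rises and 94 among the falls. Both combined libraries lay above both 4EHP libraries for 145 of the 149 rises, and below them for all 325 falls. The same libraries chose the calls, so this separation is a description. Over all features tested, the libraries separated in this way for 23.0% upward and 22.7% downward.

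The number of calls depended on each of the 4 libraries. It was 291 without combined replicate 1, 165 without combined replicate 2, 157 without 4EHP replicate 1 and 255 without 4EHP replicate 2. DESeq2 called 120, of which 13 were higher and 107 lower, all of them among the 474. Its filter on mean counts left 10125 of the 12434 features without an adjusted p. Among them were 205 of the 474, namely 98 of the 149 rises and 107 of the 325 falls. Of the 474, 458 had an unadjusted p under 0.05 in the DESeq2 test.

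**Figure D1:**
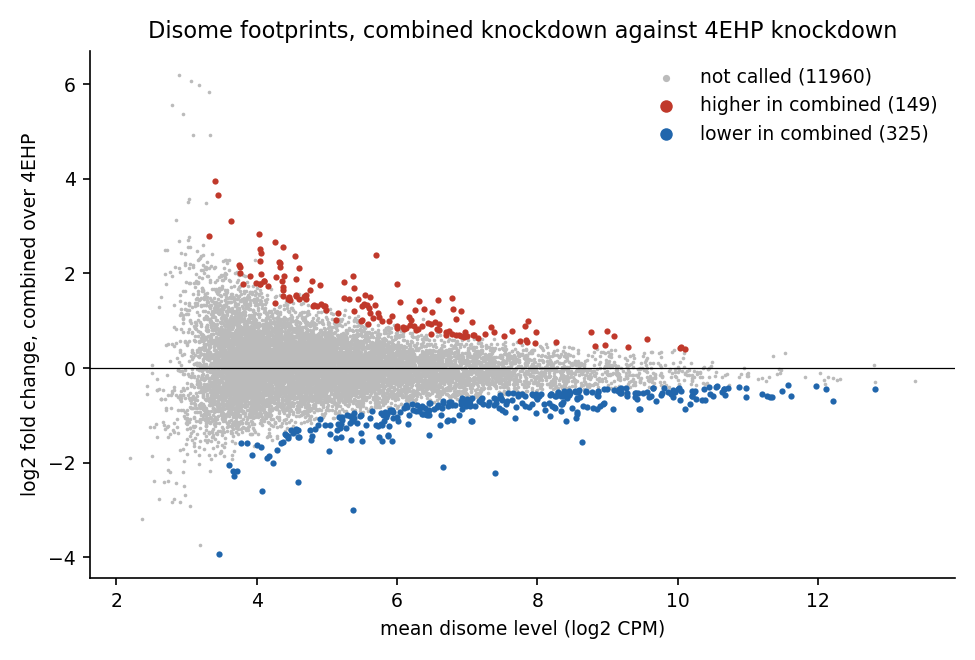
Log2 fold change of disome counts, combined over 4EHP (vertical axis), against the mean disome level in log2 CPM (counts scaled to library size, horizontal axis), 1 point per feature tested. Red points are the 149 features called higher in combined cells and blue points the 325 called lower, and smaller changes were called where the level was higher.

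Calls followed the disome level, as did the precision of the fold changes. Of 5 equal bins of features by mean disome level, the lowest had 0.322% called higher and 0.241% lower, with a median standard error of 0.673 on the log2 scale. In the highest bin, 2.29% were called higher and 9.05% lower, with a median standard error of 0.193. The median log2 fold change of all features was 0.08 in the lowest bin and -0.09 in the highest. The highest bin held 225 of the 325 falls and 57 of the 149 rises.

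The same disome counts, viewed as shares held by the top features, moved in the same direction. The 1000 features with the most disome counts in control cells held 53.03% and 52.81% of disome counts in the combined libraries, against 56.26% and 56.48% in the 4EHP libraries. The ASCC3 library gave 55.76%, the ABCE1 library 56.09% and the control libraries 56.44% and 56.23%. Both combined libraries thus lay below the other 6, which include the control libraries that chose the list. The 100 features with the most counts held 20.2% and 19.5% in combined and 21.9% and 22.6% in 4EHP cells. Monosomes moved the same way by less, with 44.4% ± 0.113 in combined and 46.1% ± 0.283 in 4EHP cells on the top 1000 (SD, n = 2 each). In RNA-seq, the top 1000 by control counts of that assay held 41.05% ± 0.283 in combined and 42.78% ± 1.62 in 4EHP cells. There, ASCC3 cells gave 40.16% ± 1.4 and control cells 43.99% ± 0.177 (SD, n = 2 each). With 2 libraries against 2, an exact permutation test cannot give a two-sided p below 0.333, so these shares carry no test.

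The 2 largest rises and falls among calls with mean log2 CPM of at least 4 and non-overlapping libraries are given here as TMM-normalised CPM per library. Larger changes were called at lower levels, where a rise reached 3.97 and a feature fell by 3.93 on the log2 scale. ENST00000393417.8, a coding sequence of 77 codons, had 43.1 and 42.1 CPM in combined and 9.14 and 2.48 CPM in 4EHP cells. The 4EHP values were also near those of control cells (8.64 and 6.84 CPM), so the combined libraries stood apart from both. Its log2 fold change was 2.67 ± 0.49 (SE, edgeR adjusted p = 1.97e-05), and it was called in each of the 10 alternative settings that gave it an adjusted p. DESeq2 gave none to any of the 4 features named here. Its monosome and RNA-seq changes, 0.43 and 0.20 on the log2 scale, did not pass the test. The counts behind it were small, with 31 and 52 disome reads in combined and 6 and 1 in 4EHP libraries.

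ENST00000616066.4, of 197 codons, had 9.74 and 28.3 CPM in combined and 3.05 and 2.48 CPM in 4EHP cells. Control cells had 13.0 and 13.7 CPM, so the 4EHP libraries gave the low values, and the combined libraries lay on either side of control. The disome reads were few, with 7 and 35 in combined and 2 and 1 in 4EHP libraries. The log2 fold change was 2.83 ± 0.68 (SE, edgeR adjusted p = 0.00319), and the call was lost without combined replicate 2 (log2 fold change 1.73, adjusted p = 0.513), without 4EHP replicate 1 (log2 fold change 3.01, adjusted p = 0.124) and with the libraries thinned to equal depth (log2 fold change 2.73, adjusted p = 0.126).

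ENST00000369162.7, of 2203 codons, had 9.74 and 5.66 CPM in combined and 51.8 and 69.4 CPM in 4EHP cells. The ASCC3 library had 8.17 CPM and the control libraries 54.0 and 57.5 CPM, so it was low wherever ASCC3 siRNA was given. Whether it belongs to the gene targeted by that siRNA was not examined, and in that case its fall would be the knockdown itself. The disome log2 fold change was -3.01 ± 0.40 (SE, edgeR adjusted p = 1.03e-10), with -3.36 in monosomes and -1.28 in RNA-seq, and it was called in each of the 10 alternative settings that gave it an adjusted p. Relative to monosomes, its disomes did not pass the test, with a log2 difference of 0.33 (edgeR adjusted p = 0.869).

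ENST00000268042.7, of 419 codons, had 6.96 and 2.43 CPM in combined and 22.9 and 29.7 CPM in 4EHP cells, with 10.2 CPM in the ASCC3 library and 13.0 and 21.9 CPM in control cells. Its disome reads were few as well, with 5 and 3 in combined and 15 and 12 in 4EHP libraries. Its log2 fold change was -2.59 ± 0.56 (SE, edgeR adjusted p = 0.000457), and the call was lost without combined replicate 2 (log2 fold change -1.86, adjusted p = 0.162) and with the libraries thinned to equal depth (log2 fold change -2.37, adjusted p = 0.0562). Monosomes and RNA-seq fell as well, by 0.88 and 0.91 on the log2 scale.

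**Figure D2:**
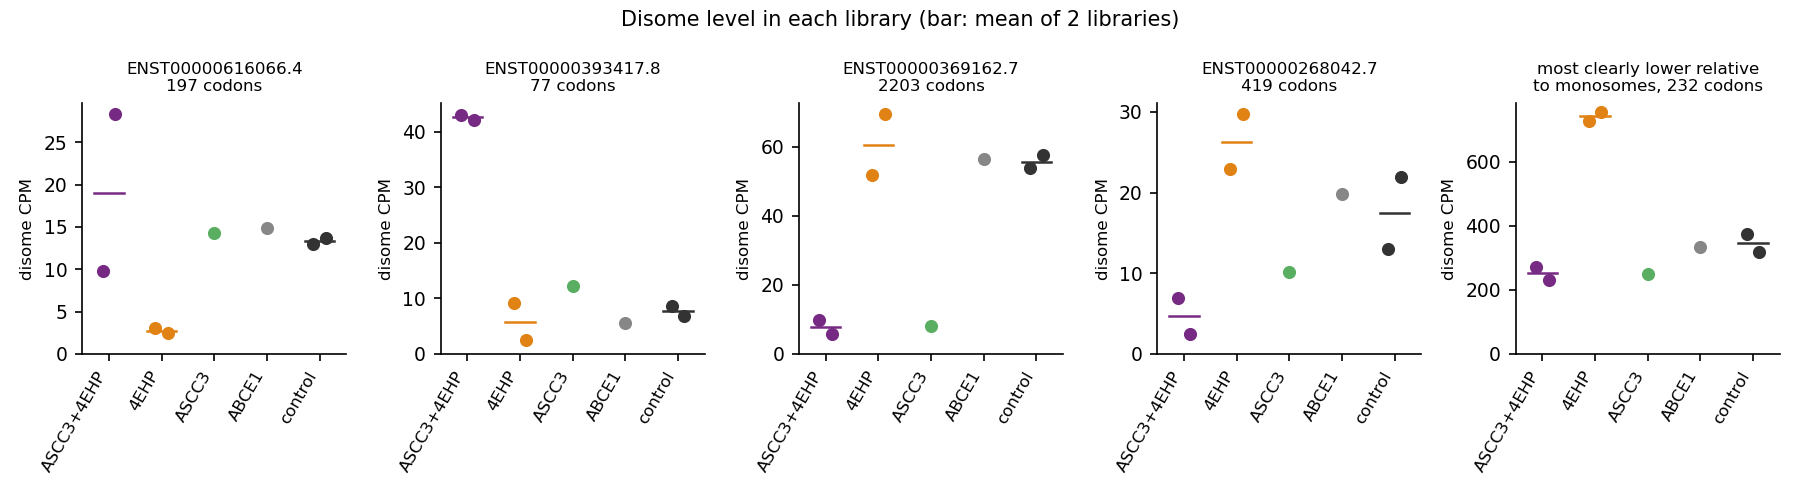
Disome level in TMM-normalised CPM (vertical axis, linear from 0) in each of the 8 disome libraries, for the 4 named features and for a feature of 232 codons described later. Points are libraries, bars are means of 2 libraries, and the lone ASCC3 and ABCE1 libraries have no bar.

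Calls were set against coding length, which the files give per transcript. Called features were shorter than those tested, with a median of 220 codons for rises and 261 for falls, against 320 over all tested. Isoforms of one gene can differ in length and stand as separate features, so one change may be counted in several length classes. Of the 325 falls, 173 had another called fall within 40 lines, and 39 of the 149 rises had another called rise. How this bears on the length pattern was not tested. Rises made up 1.82% of features up to 150 codons and 0.592% of those over 1200 codons, and falls 3.64% and 1.07%. Among features above the median disome level, where the median standard error was 0.274 and 0.275 in these classes, rises made up 3.1% and 0.632% and falls 8.27% and 1.47%. Each length class nevertheless held nearly the same share of disome counts in both groups: features up to 150 codons took 20.6% ± 0.158 in combined and 20.9% ± 0.108 in 4EHP cells, and those over 1200 codons 5.58% ± 0.203 and 5.32% ± 0.214 (SD, n = 2 each).

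Falls took a larger share of features that were disome-rich in control cells, by the ratio of disome to monosome level there. From the lowest to the highest of 5 equal bins of this ratio, 1.13%, 1.41%, 1.93%, 3.14% and 5.47% of features fell, while rises stayed between 0.886% and 1.53%. Features with high ratios also had more disome counts, so precision differed between the bins. Among features above the median disome level, the shares that fell were 3.64%, 2.85%, 3.36%, 4.76% and 7.41%, but the median standard error still ran from 0.312 in the lowest bin to 0.238 in the highest. The median control ratio on the log2 scale was 0.36 for falls, 0.06 for rises and -0.16 over all features tested. Of disome counts on the features in these bins, the highest bin took 39.7% and 40.8% in combined and 41.4% and 42.8% in 4EHP cells. Control cells gave 40.4% and 42.1%, and their libraries overlapped both groups. The ABCE1 library gave 39.1%, below both combined libraries, and the ASCC3 library 40.2%, between them.

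**Figure D3:**
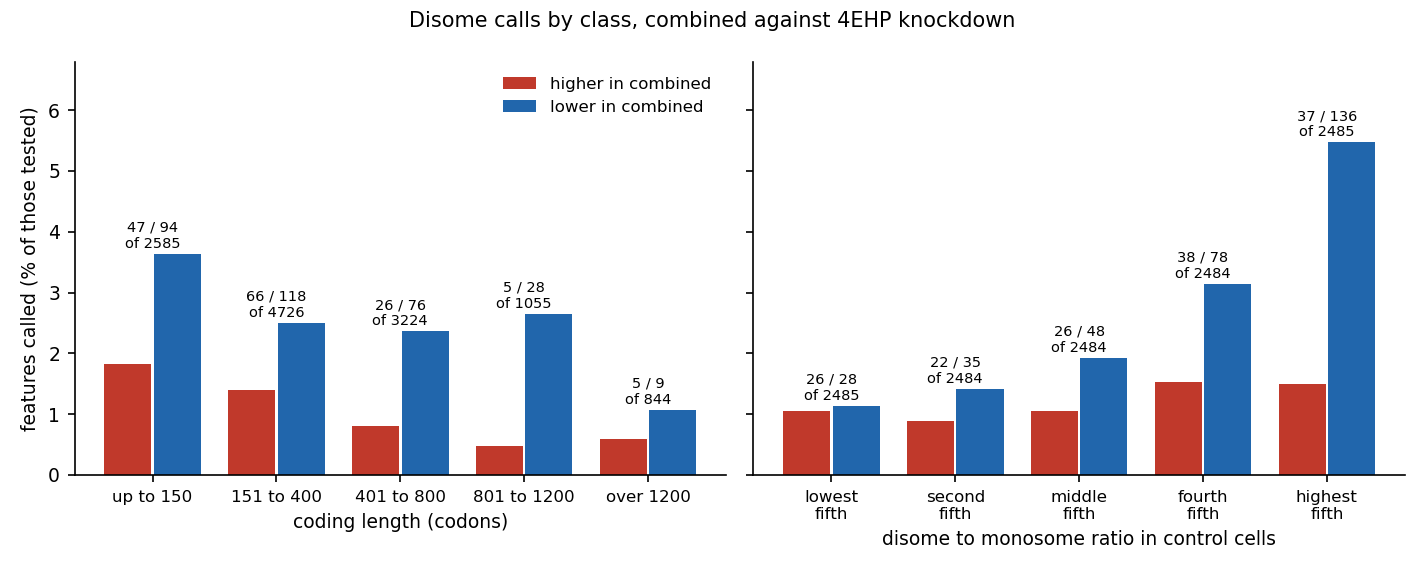
Features called higher (red) or lower (blue) in combined than in 4EHP cells, as a percentage of those tested (vertical axis, from 0), by coding length in codons (left) and by 5 equal bins of the control disome to monosome ratio (right). Numbers above the bars give rises and falls, then features tested, and falls reach 5.47% in the highest bin of the ratio. One gene may supply several of the features counted.

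The fall in disomes was accompanied by lower monosome and RNA-seq values. Of the 325 falls, 289 had a negative log2 fold change in monosomes (median -0.26) and 154 were called lower there, and 0 were called higher. In RNA-seq, 268 of the 324 measured were negative (median -0.27) and 60 were called lower. Of all features tested, 47.3% were positive in monosomes and 46.3% in RNA-seq. The 154 falls shared by disomes and monosomes were 47.4% of the disome falls and 20.5% of the 751 monosome falls among features tested in both. Of the 324 falls measured in all 3 readouts, 59 fell in all of them, 94 in disomes and monosomes only, 1 in disomes and RNA-seq only, and 170 in disomes alone at this threshold.

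Of the rises, 100 of 149 were positive in monosomes (median 0.11), and 34 of the 149 were called higher there and 1 lower. In RNA-seq 96 of 148 were positive (median 0.08) and 12 were called higher. The difference between rises and falls in this respect was not tested. Among the features tested in disomes, 370 of 12422 were called higher and 751 lower in monosomes, and 84 of 12342 higher and 180 lower in RNA-seq. Over every feature tested in those assays, 5.08% of 28362 features were called in monosomes (1.75% higher, 3.34% lower) and 1.26% of 33300 in RNA-seq (0.498% higher, 0.763% lower). The monosome count of 1441 was 738 without monosome combined replicate 2, 672 without 4EHP replicate 1 and 760 without 4EHP replicate 2. The RNA-seq count of 420 was 10 without combined replicate 1, 23 without combined replicate 2 and 2800 without 4EHP replicate 1, so it depended strongly on single libraries. Across features with mean log2 CPM of at least 4, the disome change correlated with the monosome change at r = 0.41 and rho = 0.37 (9165 features, which come from the same libraries and are not independent replicates), and with the RNA-seq change at r = 0.30 and rho = 0.28 (9131 features).

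**Figure D4:**
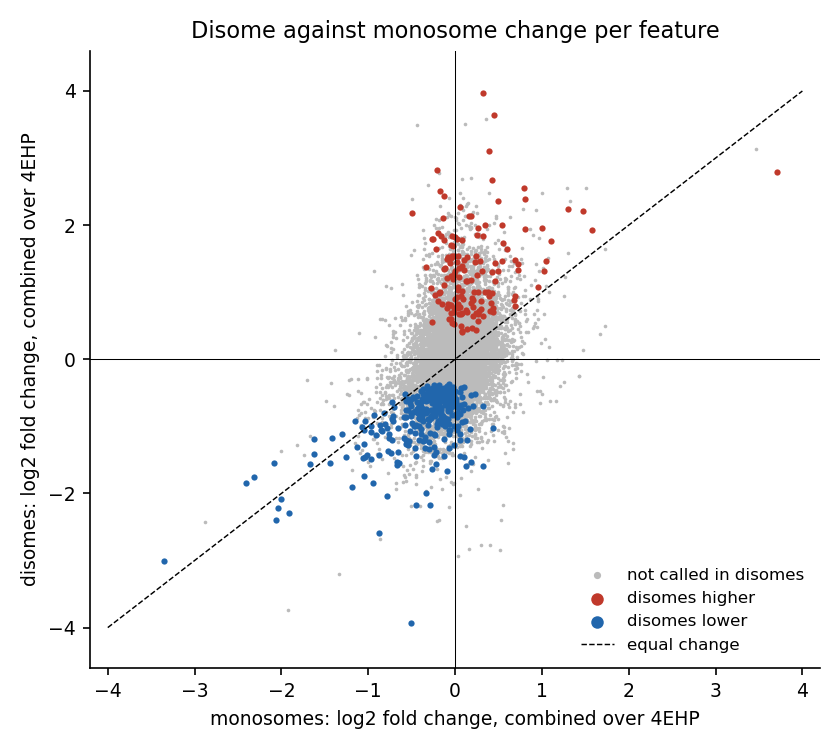
Disome log2 fold change (vertical axis) against monosome log2 fold change (horizontal axis), both combined over 4EHP, 1 point per feature measured in both. Red and blue points are disome rises and falls, and the dashed line marks equal change. The falls have a median of -0.78 in disomes and -0.26 in monosomes.

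The disome change was also tested relative to the monosome change, over more features than the disome test. Of the 149 disome rises, 148 were positive there (median 1.0), and of the 325 falls, 307 were negative (median -0.45). Among all 12434 features tested in disomes, 52.0% were positive, and every call lay among these. The disome libraries that chose the rises and falls enter this test as well, so their signs are a description. Of 25550 features, 71 differed (0.278%), 36 higher (0.141%) and 35 lower (0.137%) in combined cells, and with DESeq2's size factors the split was 32 higher and 53 lower. The count was 16 without disome combined replicate 2, 14 without disome 4EHP replicate 1, 39 without disome 4EHP replicate 2, and 41 and 40 without monosome 4EHP replicates 1 and 2. It was 162 with DESeq2 (55 higher, 107 lower) and 153 with the replicate number as a block (78 higher, 75 lower), and without disome combined replicate 1 the split was 69 higher and 16 lower. Relative to RNA-seq, 15 of 33614 features differed (0.0446%), 13 higher (0.0387%) and 2 lower (0.00595%), with 6 higher and 5 lower under DESeq2's size factors. The counts for RNA-seq moved between 0 and 190 as single libraries were left out.

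The clearest of the falls relative to monosomes was a feature of 232 codons, with the smallest adjusted p in that comparison. Its disome level was 271 and 232 CPM in combined and 727 and 756 CPM in 4EHP cells. The ASCC3 library had 249 CPM and the control libraries 374 and 319 CPM, so 4EHP cells were high and combined cells lay below control. Monosomes differed less, at 726 and 772 CPM in combined and 868 and 874 CPM in 4EHP cells. The log2 fold change was -1.57 ± 0.15 in disomes and -1.35 ± 0.14 in disomes relative to monosomes (SE, edgeR adjusted p = 2.9e-22 and 6.3e-13), and it was called relative to monosomes in each of the 15 alternative settings. In RNA-seq the change, -0.24 on the log2 scale, did not pass the test.

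The same features were then followed in cells given ASCC3 siRNA without 4EHP siRNA. In the ASCC3 library against control libraries, which share none with the main comparison, 81 of the 12434 features were called (0.651%), 26 higher (0.209%) and 55 lower (0.442%), from a single ASCC3 library assumed to vary like the other groups. Of the 325 falls, 266 were negative there (median -0.34) and 30 were called lower. Of the 149 rises, 106 were positive (median 0.27) and 5 were called higher. Over all features tested, 48.9% were positive. The 2 sets of changes correlated at r = 0.25 and rho = 0.23 over 9166 features. Tested directly, the effect of ASCC3 siRNA differed between cells with and without 4EHP siRNA for 25 features (0.201%), positively for 12 (0.0965%) and negatively for 13 (0.105%), of which 7 were among the rises and 11 among the falls. That count was 0 without combined replicate 2 (773 at an unadjusted p under 0.05), 15 and 12 without 4EHP replicates 1 and 2 and 7 without control replicate 2, and DESeq2 also gave 0 (214 at an unadjusted p under 0.05).

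Levels were also set against control cells, which these differences share. Since the features were chosen for a difference between combined and 4EHP cells, these values are a description. The rises had median log2 differences of 0.50 in combined cells, -0.57 in 4EHP cells and 0.27 in ASCC3 cells. The falls had median log2 differences of -0.50 in combined cells, 0.30 in 4EHP cells and -0.32 in ASCC3 cells. In ABCE1 cells these medians were -0.01 for rises and 0.02 for falls. Of the 149 rises, 129 were above control in combined cells and 131 were below it in 4EHP cells, and of the 325 falls, 292 were below control in combined cells and 272 above it in 4EHP cells. Over all features tested, 6223 of 12434 were above control in combined cells and 6081 in 4EHP cells.

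**Figure D5:**
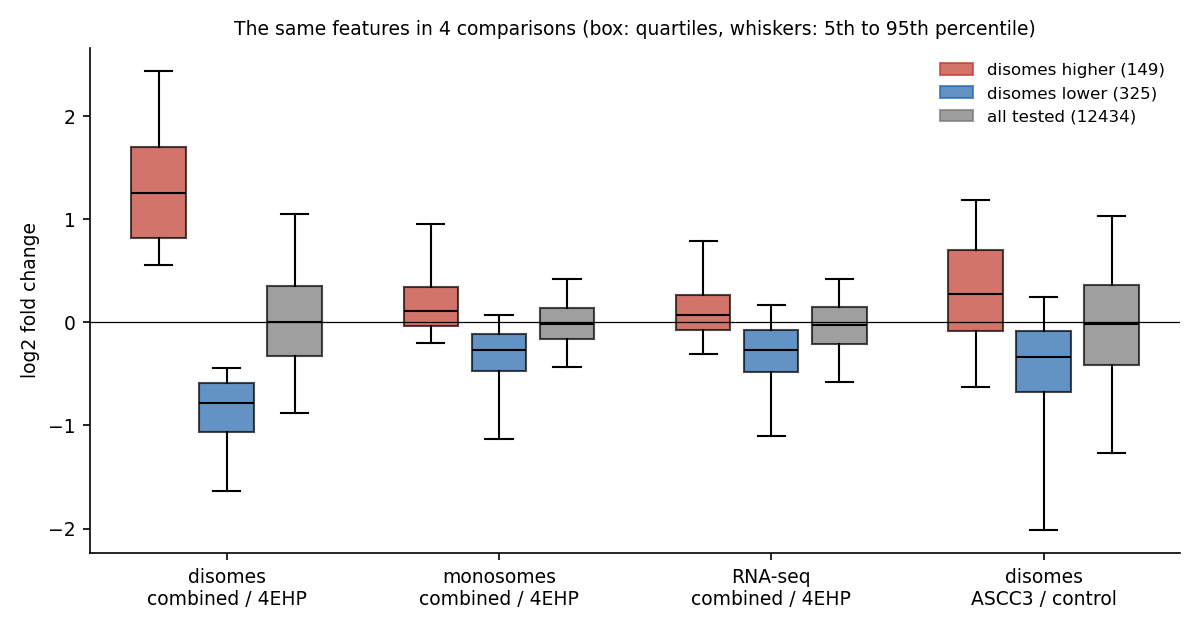
Log2 fold change (vertical axis) of disome rises (red), disome falls (blue) and all features tested (grey) in 4 comparisons: disomes, monosomes and RNA-seq of combined over 4EHP cells, and disomes of ASCC3 over control cells. Boxes are quartiles and whiskers the 5th to 95th percentiles. The disome comparison on the left is the one that chose the features, and in the other 3 the falls have medians of -0.26, -0.27 and -0.34.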

How the data were processed

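Monosome, disome and RNA-seq counts were taken as the authors deposited them: whole-number read counts per Ensembl transcript ID, in files without a header, with a length column that was read as coding length in codons, since 33.15% of its values are multiples of 3. The length is another deposited column, and its unit is not stated. Per the submitters' processing notes, the tools include STAR 2.7.0a and UMI-tools 1.1.1 and the build is hg38, and neither the counter nor the annotation release is given in the sources used here. Per the labels' protocols, lysates were treated with RNase I, ribosomes pelleted and footprints selected by size. No normalization by the authors is recorded.

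Isoforms share reads, so transcripts at most 40 lines apart were joined where their count differences within the 20 replicate pairs of the series, after removal of 2 components, correlated above 0.7. This was done for transcripts with at least 500 counts. Rarer ones were joined only where their counts were identical in every library, within fixed blocks of 40 lines. Of 97742 transcripts with any count, 54371 features were left. Reads shared with near-identical copies elsewhere cannot be told apart.

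The test was run in edgeR 4.0.16 under R 4.3.3 (quasi-likelihood F test, robust dispersion, TMM, expression filter at a minimum count of 10, two-sided, Benjamini-Hochberg adjusted p under 0.05 over all features tested). All groups of an assay entered the fit, so they share the spread, and the lone ASCC3 and ABCE1 disome libraries were assumed to vary like the rest. Disomes relative to monosomes or RNA-seq, and the ASCC3 effect with against without 4EHP siRNA, were interaction terms. DESeq2 1.42.0 was an alternative. Scripts were tested on simulated data. Fold changes are log2 values with standard errors (SE), and levels are TMM-normalised CPM computed from the deposited counts. Replicate pairs differed beyond sampling noise, the chi-square per degree of freedom being 1.7 in combined and 1.53 in 4EHP disomes and 14.0 in 4EHP RNA-seq.

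The design had assumed genes, and features were used in their place. The members, lists and comparisons were chosen with earlier results of these data known. Named features are the 2 with the largest change in each direction among calls with non-overlapping libraries and mean log2 CPM of at least 4. The 232-codon feature was described because it had the smallest adjusted p relative to monosomes. The bins by level and by control ratio, the shares on top features, the levels against control, the ASCC3 against control contrast shown alone and the counts repeated across settings were added after seeing the data. Figures were drawn with matplotlib in Python.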

Additional observations from a re-analysis of the deposited data

Results flagged for a closer look

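The effect of ASCC3 siRNA on disomes differed between cells with and without 4EHP siRNA for 25 of 12434 features (edgeR interaction test, adjusted p under 0.05). Of the 25, 18 were also called in combined against 4EHP cells (7 higher, 11 lower), a comparison whose 4 libraries the interaction shares, and 5 were called in ASCC3 against control cells. In 23 of the 25, the ASCC3 siRNA effect had opposite signs with and without 4EHP siRNA, the exceptions being features of 232 and 137 codons. The features were chosen for a difference between these effects, so the signs are a description. The difference rests on 1 ASCC3 library, which held from 1 read (a feature of 287 codons) to 2416 reads (52 codons) on them. The count was 0 without combined replicate 2 (773 at an unadjusted p under 0.05), 15 without 4EHP replicate 1, 12 without 4EHP replicate 2 and 7 without control replicate 2, and DESeq2 called 0 (214 at an unadjusted p under 0.05). A feature of 232 codons was among them, with a log2 fold change of -1.57 in combined against 4EHP cells and -0.48 in ASCC3 against control cells (interaction adjusted p = 0.0182).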

How the results depend on the processing

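The 474 disome calls became 120 with DESeq2, 166 with no filter on low counts, 1099 transcripts (in 518 joined features) when only transcripts with identical counts were joined, and 262 when the 4 libraries were thinned to the smallest (chosen after seeing the data), and they were 157 to 291 when single libraries were left out. They were 475 with DESeq2's size factors and 440 from the libraries of the 2 groups alone. The same-numbered disome libraries showed little common deviation (correlation 0.022 between combined and 4EHP), and the labels give no pairing. With the replicate number as a block the count was 542 for disomes and 153 relative to monosomes.

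Relative to monosomes, the 71 calls became 162 with DESeq2, 227 (in 116 features) with identical transcripts joined, and 14 to 85 without single libraries. Relative to RNA-seq, the 15 calls became 45 with DESeq2, 28 with no filter, 8 from the 2 groups alone, 9 (in 6 features) with identical transcripts joined, 6 when thinned, and 0 to 190 without single libraries (0 without either combined RNA-seq replicate, with 1736 and 1714 at an unadjusted p under 0.05). The median over all features in that comparison was 0.14 and, with DESeq2, -0.01 on the log2 scale. Monosome calls were 564 with DESeq2, 3506 (in 1566 features) with identical transcripts joined and 672 to 1058 without single libraries. RNA-seq calls were 1398 with no filter, 80 from the 2 groups alone, 759 (in 363 features) with identical transcripts joined and 10 to 2800 without single libraries. The 25 interaction calls became 0 with DESeq2, 2 with no filter, 85 (in 39 features) with identical transcripts joined, 8 when thinned and 0 to 30 without single libraries. The cause was not tested. Without single libraries, the difference in the share of disome counts, combined minus 4EHP, was -0.404 to -0.181, 0.100 to 0.479, -0.471 to -0.220, -0.0284 to 0.189 and 0.116 to 0.419 percentage points for the 5 length classes, from the shortest to the longest. Lone libraries were assumed to vary like other groups. At a median standard error of 0.673, changes in the lowest of 5 bins of disome levels were hardly detectable at this depth.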

Other observations

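Calls that recurred were fewer. Of the 149 rises and 325 falls, 11 and 51 were called in every setting that left out a single disome library of these 2 groups, and 5 and 43 of those by DESeq2 as well. These were selected by the results, so the values that follow carry no test. The 51 falls had a median length of 214 codons and a median disome log2 fold change of -0.87. Monosome changes had the same sign in 49 of the 51, with 40 called lower, and RNA-seq changes in 49, with 23 called lower. Of all features tested in disomes, 751 of 12422 were called lower and 370 higher in monosomes, and 180 of 12342 lower and 84 higher in RNA-seq. For the ASCC3 comparison that follows, 48.9% of all 12434 were positive, and the shares called are given above. In ASCC3 against control disomes 47 had the same sign and 14 were called lower. The 11 rises had a median of 176 codons and a median disome log2 fold change of 1.47, with 10 positive in monosomes (7 called higher) and 10 positive in RNA-seq (1 called higher). In ASCC3 against control disomes 8 of the 11 were positive and 0 were called.

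Calls also lay close together in the files, in which 54.1% of adjacent transcripts passed the limit for shared reads, against 0.0896% of those 1000 lines apart. Of the 325 falls, 173 had another called fall within 40 lines, in 218 separate neighbourhoods, and of the 149 rises 39 had one, in 123 neighbourhoods, so the calls may stand for fewer genes than features.

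RNA-seq replicates differed by an SD of 0.182 in combined, 0.364 in 4EHP and 0.116 in control cells, on the log2 scale over 11227 features. The 4EHP replicate difference correlated with that of the ASCC3 RNA-seq libraries at 0.72.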
